A study of Mus musculus with 20 samples.

Results

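The 39 protein-coding Hox genes of the mouse were followed in chromatin accessibility (ATAC-seq), chromatin-associated RNA (ChrRNA-seq) and the m6A of that RNA (Chrm6A-seq). Members were all genes whose symbol is Hoxa, Hoxb, Hoxc or Hoxd followed by a number, 39 of 21900 protein-coding genes in the RefSeq table of GRCm38.p6, the assembly behind mm10. They lie in 4 clusters. Hoxa holds 11 genes over 105.5 kb of chromosome 6 (52155367 to 52260880), Hoxb 10 genes over 173.9 kb of chromosome 11 (96194316 to 96368254), Hoxc 9 genes over 115.7 kb of chromosome 15 (102921131 to 103036856) and Hoxd 9 genes over 96.9 kb of chromosome 2 (74668225 to 74765142).

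The study compared C57BL/6 embryonic stem cells (ESCs) with cultures made from them through embryoid bodies and labelled as cardiomyocytes (CM), each wild type (WT) or labelled knockout (KO) for Mettl3. METTL3 is the catalytic subunit of the m6A writer complex. Each of the 4 groups (WT ESC, KO ESC, WT CM and KO CM, the order in which values are given wherever 4 follow each other) had 3 ATAC-seq libraries. For chromatin RNA and for m6A a group was 1 sample, so those values have no replicate check. The sources used here do not say which part of Mettl3 was deleted, how many clones were used, how long the cells were differentiated, or whether replicate libraries were grown as separate cultures. P-values therefore measure the spread between libraries, which may be technical.

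Hox genes encode homeodomain transcription factors that give cells their position along the body axis. Within a cluster, low-numbered (anterior) genes are usually switched on earlier and nearer the head than high-numbered (posterior) genes, and genes with the same number in different clusters are paralogs. In ESCs the clusters are classic Polycomb targets with both H3K27me3 and H3K4me3 at many promoters, and retinoic acid, WNT and CDX factors are known to activate them. TALE proteins (PBX, MEIS, PKNOX) are their DNA-binding partners.

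RefSeq promoters, from 250 bases before to 50 after an annotated start, were held for 22 of the 39 genes (24 promoters). Several are shown because the results turn on them. The Hoxd9 promoter (chr2:74697513-74697812, + strand, GRCm38.p6) was called open in all 12 ATAC-seq libraries. The Hoxb4 (chr11:96318017-96318316, + strand) and Hoxc4 (chr15:103034145-103034444, + strand) promoters were called in fewer CM than ESC libraries. All 12 libraries had an interval in a wider region overlapping each of these promoters. The Hoxb8 (chr11:96281655-96281954, + strand) and Hoxd4 (chr2:74721728-74722027, + strand) promoters were called in none, and capitals in them mark the CDX core letters TTTATG on either strand.
Hoxd9: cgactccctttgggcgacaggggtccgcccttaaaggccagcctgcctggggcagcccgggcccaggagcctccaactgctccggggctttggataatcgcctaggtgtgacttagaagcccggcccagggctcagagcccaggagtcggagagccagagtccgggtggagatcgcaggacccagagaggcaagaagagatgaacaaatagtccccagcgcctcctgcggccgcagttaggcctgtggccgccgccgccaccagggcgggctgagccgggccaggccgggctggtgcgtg
Hoxb4: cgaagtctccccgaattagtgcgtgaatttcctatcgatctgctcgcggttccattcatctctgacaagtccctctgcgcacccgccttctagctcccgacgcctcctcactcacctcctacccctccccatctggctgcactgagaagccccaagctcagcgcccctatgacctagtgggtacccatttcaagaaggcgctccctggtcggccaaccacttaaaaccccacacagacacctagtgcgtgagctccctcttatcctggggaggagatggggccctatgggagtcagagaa
Hoxc4: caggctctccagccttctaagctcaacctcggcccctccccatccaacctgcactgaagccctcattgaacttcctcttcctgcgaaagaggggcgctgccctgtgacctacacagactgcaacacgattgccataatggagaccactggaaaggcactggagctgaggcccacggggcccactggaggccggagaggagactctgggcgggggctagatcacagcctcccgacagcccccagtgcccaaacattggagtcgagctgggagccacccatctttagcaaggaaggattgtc
Hoxb8: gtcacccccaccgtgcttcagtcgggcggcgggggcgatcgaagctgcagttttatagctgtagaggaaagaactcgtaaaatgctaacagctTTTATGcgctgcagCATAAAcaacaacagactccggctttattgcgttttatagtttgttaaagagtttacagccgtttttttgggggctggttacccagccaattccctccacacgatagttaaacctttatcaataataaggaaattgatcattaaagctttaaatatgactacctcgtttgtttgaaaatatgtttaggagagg
Hoxd4: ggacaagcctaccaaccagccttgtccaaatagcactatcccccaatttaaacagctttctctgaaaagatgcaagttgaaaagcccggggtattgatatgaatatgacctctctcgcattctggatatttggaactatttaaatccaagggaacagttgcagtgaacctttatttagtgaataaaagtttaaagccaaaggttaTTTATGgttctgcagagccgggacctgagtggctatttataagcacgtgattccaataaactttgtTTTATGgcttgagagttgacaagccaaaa

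Across the series, ATAC-seq libraries held 107125 to 119307 called intervals in ESC WT, 111956 to 116605 in ESC KO, 85443 to 94617 in CM WT and 70132 to 76381 in CM KO. ChrRNA-seq depth, estimated from the spacing of low values, was 27910000, 28030000, 29360000 and 29800000 reads. Mettl3 RNA stood at 1.73, 1.28, 1.18 and 1.07 RPKM, which does not check the KO labels, because RNA counted over a whole gene can persist when part of it is deleted. Pluripotency markers bore out the ESC label in part, with Pou5f1 at 5.76, 5.10, 1.34 and 1.32 RPKM, but Sox2 was listed in no library, so a gene missing from a list is not shown to be silent. The 7 cardiomyocyte markers summed to 0.908, 0.697, 7.64 and 0.600 RPKM, so the CM label rested on their levels in CM WT and not in CM KO. The 5 fibroblast markers summed to 27.6 RPKM in CM WT and 7.74 in CM KO, and the 4 blood markers to 40.8 and 45.5. The CM cultures thus held RNA of several lineages. Which cells carried the Hox RNA was not tested, and more cells of a type cannot be told apart from more RNA per cell.

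Hox RNA was nearly absent from the ESC lists and appeared in CM of both genotypes at low level. RPKM is the authors' unit, reads scaled by gene length and library size. In ESC WT 3 of 39 members were listed (beside 67.9% of 20946 protein-coding genes), all in the Hoxa cluster, and in ESC KO 6 (beside 68.1%), of which Hoxb9 and Hoxc12 reached 0.1 RPKM. None of the 3 in ESC WT reached 0.1 RPKM. In CM WT 20 members were listed (beside 72.5%) and 16 reached 0.1 RPKM, between 0.107 and 0.410. In CM KO 20 were listed (beside 71.6%) and 16 reached 0.1 RPKM, up to 0.594. Of all protein-coding genes, 48.7%, 48.0%, 54.3% and 52.7% reached 0.1 RPKM. Summed over the members, RPKM was 0.0897, 0.402, 3.31 and 4.95 in the 4 libraries. These sums stand on about 9.06, 34, 994 and 1631 estimated reads.

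**Figure D1:**
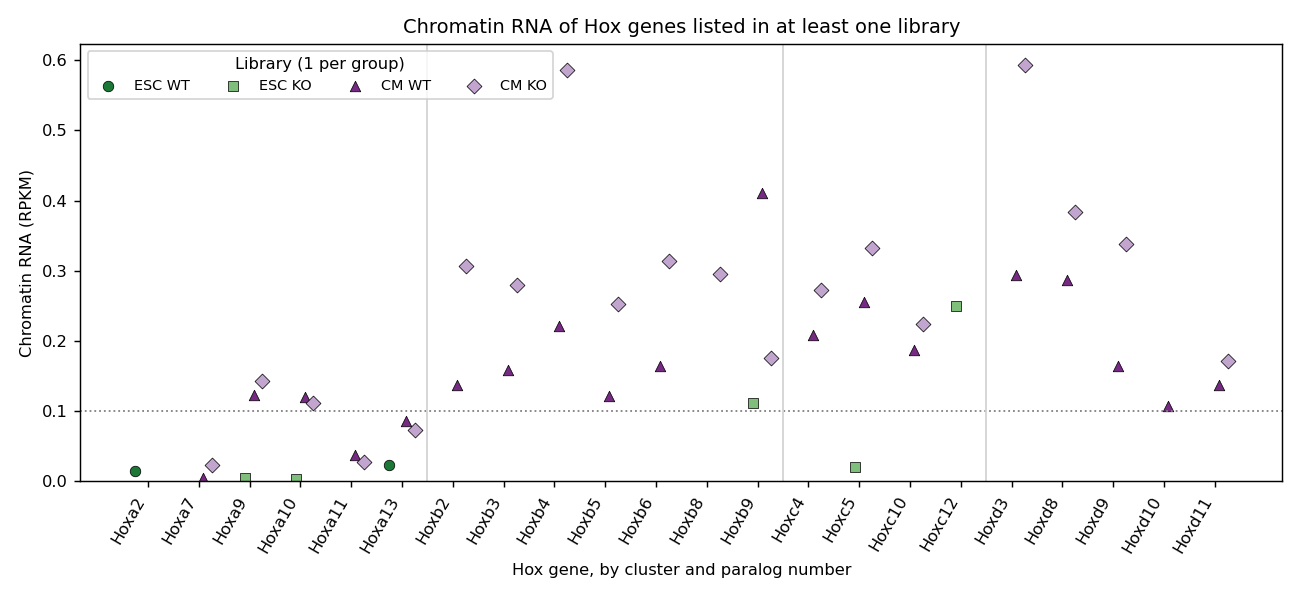
RPKM of chromatin-associated RNA (y axis) for Hox genes listed in at least 1 library, ordered by cluster and number, with 1 point per library and group and the dotted line at 0.1 RPKM. A missing point is a gene not listed in that library. ESC points are few, and no ESC WT point reaches the line, while 16 CM WT and 16 CM KO points lie above it.

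In 16 members no library listed any RNA. These were Hoxa3, Hoxa4, Hoxa5, Hoxa6, Hoxb1, Hoxb7, Hoxb13, Hoxc6, Hoxc8, Hoxc9, Hoxc11, Hoxc13, Hoxd1, Hoxd4, Hoxd12 and Hoxd13, and 6 of them overlap another RefSeq gene. Hoxa3 spans Hoxa4, Hoxa5 and Hoxa6, and Hoxd4 lies inside Hoxd3. Reads in such overlaps may have been dropped or given to the partner, and their levels are not known here. Overlap alone did not decide listing, since 14 of the 23 listed members also overlap another gene.

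The first comparison was CM WT against ESC WT. A gene was called higher or lower when log2(RPKM + 0.1) differed by at least 1, that is 2-fold, with at least 0.1 RPKM in either library and an unlisted gene taken as 0. This scale understates the change of low genes. All 16 members that passed the filter were higher and 0 were lower, beside 15.7% higher and 9.64% lower among 11820 protein-coding genes. All 16 passed through CM WT alone and were unlisted in ESC WT, so their direction was fixed by the filter, nothing is read from that share, and no fold is given. Restricted to genes listed in both libraries, 0 members passed.

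By cluster, the 16 were 2 of Hoxa, 6 of Hoxb, 3 of Hoxc and 5 of Hoxd. The highest in CM WT was the posterior gene Hoxb9 at 0.410 RPKM, followed by Hoxd3 at 0.294, Hoxd8 at 0.287 and Hoxc5 at 0.256. Hoxb4 stood at 0.222, Hoxc4 at 0.209 and Hoxc10, a lumbar-level posterior gene, at 0.187. Anterior, central and posterior numbers were all present, so CM WT RNA did not stop at one axial level. Hoxb6 (0.164), Hoxd9 (0.164), Hoxb3 (0.159), Hoxd11 (0.137), Hoxb2 (0.136), Hoxa9 (0.123), Hoxb5 (0.122), Hoxa10 (0.120) and Hoxd10 (0.107) made up the rest. Estimated reads ran from 9.35 for Hoxb5 to 313 for Hoxd3, and the order among near values was not tested. Where a ratio of RPKM is given below, the values in brackets are its 95% interval. Such intervals (Clopper-Pearson, on estimated reads) cover no more than counting error between a pair of libraries and say nothing of how cultures vary.

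The second comparison was CM KO against ESC KO. Of 17 members in the filter 15 were higher and 1 lower, beside 14.3% and 3.79% of 11388 genes. Only 4 of the 17 were listed in both libraries, and the others passed through the library in which they were high, so their direction was fixed by the filter and nothing is read from the share. Hoxa9, a posterior gene known from leukaemia, stood at 0.143 RPKM against 0.00445, and Hoxa10 at 0.111 against 0.00369, in each case on about 1 read or less in ESC KO. Hoxc5 stood at 0.332 against 0.0199 RPKM, a ratio of 16.6 (4.10 to 137). Only 3 members were higher among genes listed in both libraries. Hoxb9 stood at 0.176 against 0.111 RPKM, a ratio of 1.59 (0.860 to 3.26) whose interval includes no difference. The 1 lower member was Hoxc12, at 0.25 RPKM in ESC KO and unlisted in CM KO. The 2 differentiations have separate libraries, and the difference between them has no test with 1 library per group.

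KO and WT were next compared within ESCs. Both members in the filter, Hoxc12 and Hoxb9, were higher, beside 0.613% higher and 1.17% lower of 10437 genes. Both were unlisted in ESC WT and passed through ESC KO alone, so their direction was fixed by the filter and nothing is read from the share. Hoxc12, a posterior gene of the Hoxc cluster, rested on about 12.49 estimated reads in ESC KO, and Hoxb9 on about 16.4.

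The last comparison set CM KO beside CM WT, where most listed members had RNA in both libraries. By the rule, 2 of 17 members were higher and 1 lower, beside 0.861% and 2.06% of 11618 genes, and the median log2 difference was 0.32, beside 0.10 over all. Hoxb4, an anterior gene known for haematopoietic stem cell expansion, stood at 0.586 RPKM in CM KO and 0.222 in CM WT, a ratio of 2.64 (1.59 to 4.53). Hoxb8, a central gene, was listed in CM KO only, at 0.295 RPKM on about 52.0 estimated reads. Hoxd10 was listed in CM WT only, at 0.107 RPKM on about 34 reads, and it overlaps Hoxd11. Hoxb8 and Hoxd10 each passed through the only CM library that listed them, so their direction was fixed by the filter. Nothing is read from the shares, and among genes listed in both CM libraries Hoxb4 alone was called. Scaling the libraries to a median ratio of 1 left 1 member higher.

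Among the 19 members listed in both CM libraries, 14 had a ratio above 1, and the median was 1.31, beside 1.04 for 14597 protein-coding genes with a RefSeq length listed in both, of which 55.0% were above 1. Where the higher of both levels was 0.1 to 1 RPKM, 13 of 15 members were above 1 with a median of 1.34, beside 52.9% of 7160 genes and a median of 1.02. Intervals lay wholly above 1 for 5 of the 19 members (26.3%), beside 33.3% of the 14597 genes, and wholly below 1 for 1 (5.26%), beside 22.7%. Among the 15 the shares were 33.3% above and 6.67% below, beside 28.9% and 25.96%. An interval above 1 was therefore about as frequent among all genes as among the members, and nothing is read from that count. Hoxd3 had the best counted difference, 0.594 against 0.294 RPKM on about 642 and 313 reads, a ratio of 2.02 (1.76 to 2.32). Hoxb3, also of paralog group 3, stood at 0.279 against 0.159 RPKM, a ratio of 1.76 (1.47 to 2.12). Hoxb6 stood at 0.313 against 0.164 RPKM (1.90, 1.31 to 2.86) and Hoxc4 at 0.273 against 0.209 (1.31, 1.02 to 1.68). Hoxb3 encloses Hoxb4, and Hoxd3 encloses Hoxd4 and Mir10b, so reads of these pairs may not be independent.

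Hoxb9 went the other way, at 0.176 RPKM in CM KO against 0.410 in CM WT, a ratio of 0.429 (0.270 to 0.694). It was the highest member in CM WT and the lowest of 7 listed Hoxb members in CM KO. Hoxb2, Hoxb5 and Hoxd9 had ratios of 2.25, 2.07 and 2.05, each with an interval that includes 1. Hoxa10 (0.928), Hoxa9 (1.16), Hoxc10 (1.20), Hoxd11 (1.25), Hoxc5 (1.3) and Hoxd8 (1.34) stood closer to 1, also with intervals that include it. The other 4 members listed in both stayed below 0.1 RPKM. By number, the median ratio was 1.89 for 6 anterior, 1.90 for 5 central and 1.04 for 8 posterior members. By cluster it was 0.895 for 6 Hoxa, 1.99 for 6 Hoxb, 1.3 for 3 Hoxc and 1.68 for 4 Hoxd members. These medians include the 4 members below 0.1 RPKM, all in the Hoxa cluster and on few estimated reads. Markers moved between the same 2 libraries: cardiomyocyte markers were lower by the rule in 6 of the 6 that passed the filter, fibroblast markers in 5 of 5 and endoderm markers in 4 of 5 (15.9 RPKM summed in CM WT, 6.42 in CM KO). Of all protein-coding genes in the filter 0.861% were higher and 2.06% lower. Some of the cardiomyocyte and fibroblast markers were below 0.1 RPKM in CM KO. These passed through CM WT alone, so their direction was fixed by the filter. Pluripotency markers summed to 6.95 and 10.98 RPKM, with 1 of 6 higher by the rule and a median log2 difference of 0.74. Blood markers were higher in 2 and lower in 1 of 4, and the tail bud gene T stood at 0.423 against 0.350 RPKM. Their part in the Hox ratios was not tested.

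**Figure D2:**
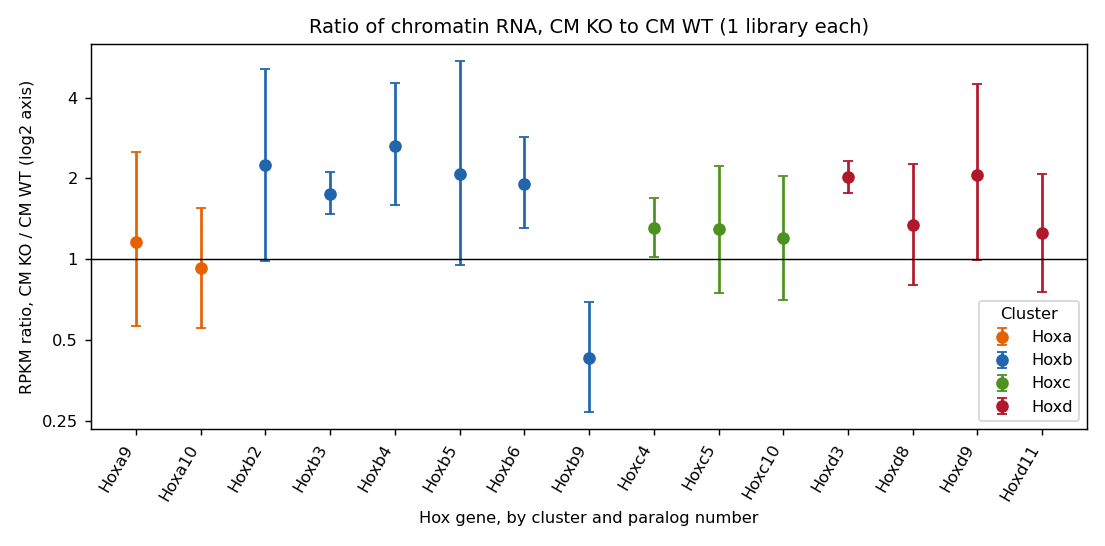
Ratio of RPKM in CM KO to CM WT (y axis, log2 scale) for the 15 Hox genes with at least 9 estimated reads in both libraries, coloured by cluster. Bars are 95% Clopper-Pearson intervals of counting error between 1 library and 1 library. Hoxb3, Hoxb4, Hoxb6, Hoxc4 and Hoxd3 lie above the line at 1, Hoxb9 lies below it, and the bars of the others cross it.

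Partners and activators of the Hox genes were examined in the same libraries. Of 9 TALE cofactor genes, all in the filter, 7 were higher and 0 lower in CM WT than in ESC WT. Among all protein-coding genes 15.7% were higher and 9.64% lower. The median log2 difference was 1.58, beside -0.10 over all genes. Meis1 stood at 0.117, 0.0504, 1.31 and 0.961 RPKM in the 4 libraries. Meis2 (1.48 against 0.110), Pbx3 (1.78 against 0.531), Pbx2 (1.00 against 0.315), Pknox2 (0.296 against 0.0714) and Meis3 (0.229, unlisted in ESC WT) were also higher in CM WT. Pknox2 and Meis3 passed the filter through CM WT alone, so their direction was fixed by it. In KO differentiation 6 of 9 were higher, beside 14.3% of all genes. Meis1 and Pknox2 among them passed through CM KO alone, so their direction was fixed as well. Between CM KO and CM WT 0 of 9 passed in either direction, and between ESC KO and ESC WT 0 of 7. Among all genes 0.861% were higher and 2.06% lower in CM KO, and 0.613% and 1.17% in ESC KO. Per length, Pbx2, Pbx3, Meis1 and Meis2 each stood above every Hox gene in both CM libraries, while Pbx4, at 0.181 and 0.201 RPKM, lay within their range.

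Of 22 regulators of Hox activation, 17 were in the filter and 8 were higher and 2 lower in CM WT than in ESC WT, beside 15.7% and 9.64% of all genes, with a median log2 difference of 0.47, beside -0.10 over all. Hmga2 stood at 3.14 against 0.136 RPKM, Cyp26a1, which degrades retinoic acid, at 1.59 RPKM and unlisted in ESC WT, and Dhrs3, a retinaldehyde reductase, at 0.424 against 0.0556. Rxra, Rarb, Cdx2 and Crabp2 were also higher, and the lower ones were Rarg and Gbx2. In KO differentiation 5 were higher (Hmga2, Cyp26a1, Cdx2 and Rarb among them) and 1 lower (Gbx2) of 17, beside 14.3% and 3.79%, with a median log2 difference of 0.73, beside 0.11 over all. Of those higher in WT differentiation, only Hmga2 and Rxra reached 0.1 RPKM in ESC WT. Of those higher in KO differentiation, only Hmga2 reached it in ESC KO. The others passed the filter through the CM library alone, and Gbx2 through the ESC library alone. Their direction was fixed by the filter, and nothing is read from these shares. Cdx2, a posterior activator of Hox genes, stood at 0.0111, 0.0165, 0.179 and 0.508 RPKM in the 4 libraries and was the 1 regulator higher in CM KO than in CM WT, while Dhrs3 was the 1 lower, at 0.139 against 0.424. In ESC KO against ESC WT 0 of 11 were higher and 2 lower, Gbx2 (0.331 against 1.60) and Rarg (0.679 against 1.57). The MLL genes Kmt2a and Kmt2b, whose products methylate H3K4 at Hox promoters, ranged from 2.03 to 2.88 RPKM over all 4 libraries and passed in no comparison.

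Noncoding genes inside the clusters were low, too. The antisense genes Hoxb3os and Hoxb5os stood at 0.146 and 0.0342 RPKM in CM WT and 0.334 and 0.110 in CM KO. Haglr of the Hoxd cluster stood at 0.00988, 0.0197, 0.0893 and 0.190. All 3 were higher by the rule in KO differentiation. Hoxb3os overlaps Hoxb2 and Hoxb3, and Hoxb5os overlaps Hoxb5 and Hoxb6, and without a stated strand setting reads of these pairs cannot be told apart. Of the list of 30 noncoding and flanking genes, 10 were in the filter in WT differentiation, with 1 higher (Hoxb3os) and 1 lower (Ttll6), and 13 in KO differentiation, with 4 higher (these 3 and Evx1) and 1 lower (Ttll6). Of protein-coding genes 15.7% were higher and 9.64% lower in WT differentiation, and 14.3% and 3.79% in KO differentiation. Between the CM libraries 1 of 12 was higher, Evx1, listed in CM KO only at 0.130 RPKM, and 0 were lower. Of protein-coding genes 0.861% were higher and 2.06% lower there. In each comparison, every gene of this list that was called passed the filter only through the library in which it was high. Its direction was fixed by the filter, and nothing is read from these shares. Of 6 other homeobox genes, Cdx2 alone was in the filter in each CM comparison.

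In ATAC-seq the clusters were already called open at many places in ESCs. Fewer Hox bases were called in CM, but fewer bases were called in the CM libraries as a whole, and the direction turned in several clusters when that was taken into account. In total 135 of 193427 union regions lay in the clusters, 32 in Hoxa, 45 in Hoxb, 31 in Hoxc and 27 in Hoxd. A union region joins intervals of any library that share at least 1 bp. Of these, 45 (33.3%) were called in all 12 libraries, beside 21.1% of all regions. Regions called in ESCs and in CM made up 69.6%, beside 48.0% of all regions. In ESC libraries only 33 were called (24.4%, beside 33.9%), and in CM libraries only 8 (5.93%, beside 18.1%). None of the 135 was called in all 6 ESC and no CM library, beside 4.30% of all regions, and none in all 6 CM and no ESC library, beside 0.728%.

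The ESC WT libraries held 24, 22 and 16 intervals in Hoxa, 36, 31 and 32 in Hoxb, 27, 25 and 25 in Hoxc and 23, 18 and 21 in Hoxd. The CM WT libraries held 12, 18 and 12 in Hoxa, 26, 30 and 28 in Hoxb, 16, 17 and 16 in Hoxc and 18, 23 and 19 in Hoxd. The WT groups did not overlap for Hoxb and Hoxc and did for Hoxa and Hoxd. The ESC KO libraries held 21, 18 and 21 intervals in Hoxa, 29, 31 and 33 in Hoxb, 27, 23 and 26 in Hoxc and 23, 19 and 19 in Hoxd. The CM KO libraries held 14, 18 and 14, then 25, 28 and 32, then 14, 16 and 16, and 16, 21 and 17. In KO only the Hoxc libraries stayed apart. Library totals did not overlap between ESC and CM either, in WT or in KO, so nothing is read from this separation. Per 100000 intervals of the library, Hoxc (lower in CM) and Hoxd (higher in CM) stayed apart in WT. In KO it was Hoxa, Hoxb and Hoxd, all higher in CM, while Hoxc overlapped. Mean intervals in Hoxc were 25.7 ± 1.15, 25.3 ± 2.08, 16.3 ± 0.577 and 15.3 ± 1.15 in the 4 groups (SD, n = 3 each). Between pairs of groups, 3 libraries against 3 cannot give an exact permutation p below 0.1. In Hoxc it was 0.1 in both differentiations.

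Over all 12 libraries, with cell type permuted within genotype (exact, two-sided, 400 arrangements, smallest p 0.005), CM minus ESC was -9.67 intervals in Hoxc (p = 0.005), -5.67 in Hoxa (p = 0.02), -3.83 in Hoxb (p = 0.04) and -1.5 in Hoxd (p = 0.375). Adjusted over 12 tests these exact permutation p-values were 0.06, 0.12, 0.16 and 0.78, so none passed 0.05. Genotype shifted the number by at most 1.17 intervals in either direction in any cluster, with unadjusted exact permutation p between 0.475 and 0.88. These numbers do not account for the smaller CM KO libraries. With 70132 intervals from each library, CM KO minus CM WT was 5.67 in Hoxa and 7.33 in Hoxb, and per 100000 intervals it was 5.24 and 7.18, each with an exact permutation p of 0.1, the smallest possible. Over both cell types KO minus WT was then 2.5 in Hoxa and 4.17 in Hoxb at equal interval numbers (exact permutation p 0.085 and 0.065, adjusted 0.146 and 0.13).

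Counted in base pairs without regard to library totals, coverage fell from ESC to CM in every cluster. The mean difference was -4978 bp in Hoxc, -3933 in Hoxb, -2829 in Hoxa and -2704 in Hoxd, each with an exact permutation p of 0.005 (the smallest possible) and 0.015 adjusted. Hoxc coverage was 11712 ± 829, 10254 ± 517, 5895 ± 131 and 6116 ± 364 bp in the 4 groups (SD, n = 3 each). The whole libraries moved too, from 46.3 ± 2.45 Mb in ESC WT to 33.9 ± 2.34 Mb in CM WT and from 46 ± 1.02 to 27.9 ± 1.17 Mb in KO. Of 100000 covered bases, 97.7 ± 3.78 lay in the Hox clusters in ESC WT and 80.6 ± 4.02 in CM WT, but 87.6 ± 2.86 in ESC KO and 104.8 ± 3.43 in CM KO (SD, n = 3 each), so on this scale the direction turned in KO. With the same 70132 intervals taken from each library, CM minus ESC was 4.17, 6.83, 0.667 and 5.83 intervals in Hoxa, Hoxb, Hoxc and Hoxd. In that order exact permutation p was 0.025, 0.015, 0.62 and 0.005, and adjusted 0.075, 0.06, 0.676 and 0.06. The mean was higher in CM in all 4, but no adjusted p was as low as the 0.015 of the base pairs. In WT alone Hoxc stayed lower in CM, at -2 intervals. Mean interval length in the clusters was 453, 417, 350 and 381 bp in the 4 groups, beside 412, 401, 382 and 382 bp in all intervals. The sources used here give no read depth for ATAC-seq.

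Set against each library's own number of intervals, the order of the clusters changed. Per 100000 intervals, CM minus ESC was 6.94 in Hoxb (exact permutation p = 0.01, adjusted 0.04) and 5.45 in Hoxd (p = 0.005, adjusted 0.04), both higher in CM, and 0.420 in Hoxa (p = 0.795, adjusted 0.795) and -2.78 in Hoxc (p = 0.02, adjusted 0.06). Hoxb stood at 29.3 ± 1.23, 27.0 ± 1.68, 31.5 ± 1.33 and 38.7 ± 4.46 per 100000 in the 4 groups (SD, n = 3 each). Hoxd stood at 18.4 ± 1.88, 17.7 ± 1.94, 22.5 ± 1.74 and 24.5 ± 2.58. The Hoxb and Hoxd calls were lost (adjusted p 0.06) without ESC WT replicate 1 or 2 or CM WT replicate 2 or 3. Hoxb and Hoxd therefore lost fewer intervals than their libraries as a whole, and the direction for Hoxb, Hoxd and Hoxa depends on which of these measures is used.

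**Figure D3:**
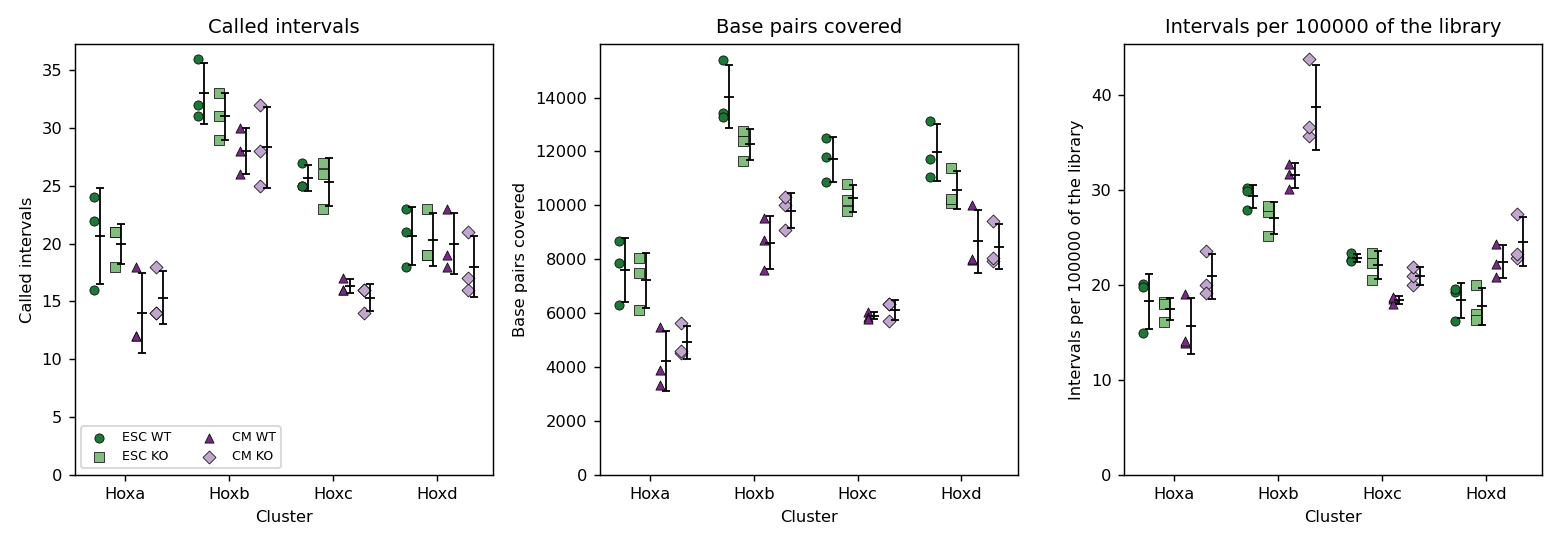
ATAC-seq over the 4 Hox clusters, as called intervals, base pairs covered and intervals per 100000 of the library (y axes from 0). Each point is 1 library, and bars show the mean and SD of 3 libraries. In Hoxc the CM points lie below the ESC points in the left and middle panels, and in Hoxb and Hoxd the CM KO points lie above the ESC KO points in the right panel.

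Few cluster regions were gained or lost by all libraries of a group. With opened meaning called in 3 of 3 libraries against 0 of 3, and closed the reverse, WT differentiation opened 1 and closed 8 of 135 regions (0.741% and 5.93%), beside 5.83% opened and 11.5% closed of all regions. KO differentiation opened 1 and closed 3, beside 0.948% and 9.74%. In ESCs KO opened 1 and closed 3, beside 1.25% and 1.37%, and in CM KO opened 1 and closed 0, beside 0.754% and 3.74%.

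Of the 8 regions closed in WT differentiation, 4 lay at 2 posterior Hoxc genes. At Hoxc12, a 519 bp region overlapping the gene and a 583 bp region 944 bp from it (chr15:102939553-102940135) were each called in 3 of 3 ESC WT, 0 of 3 CM WT and 1 of 3 CM KO libraries. At Hoxc9, a 484 bp region 858 bp away and a 946 bp region overlapping the gene (chr15:102976469-102977414) showed the same numbers. The others lay in Hoxa9, across the lowest coordinate of Hoxb13 (chr11:96194116-96194511), in Hoxb6 and 752 bp from Hoxb6. The last of these (chr11:96291690-96292062) was called in 3 of 3 ESC WT libraries and in no other, so it was also closed in ESC KO against ESC WT. The 1 opened region lay 2573 bp from Hoxd1 (chr2:74760133-74760407), the most anterior Hoxd gene, and was called in 0 ESC, 3 of 3 CM WT and 2 of 3 CM KO libraries. Hoxd1 itself was listed in no ChrRNA library.

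In the KO groups, a 475 bp region in Hoxa11 (chr6:52243762-52244236) was called in 2, 0, 0 and 3 libraries of the 4 groups. A 159 bp region in Hoxb3 was called in 3 of 3 ESC KO libraries and no other, with a best −log10 q of 4.72. A 1177 bp region in Hoxc4 (chr15:103026951-103028127) was called in 3, 3, 1 and 0 libraries, and a 299 bp region in Hoxa4, within Hoxa3, in 1, 3, 0 and 0. A 282 bp region in Hoxb3 and a 216 bp region in Hoxd3 were called in 3 of 3 ESC WT and 0 of 3 ESC KO libraries. Hoxb3 and Hoxd3 kept intervals elsewhere in all 12 libraries.

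**Figure D4:**
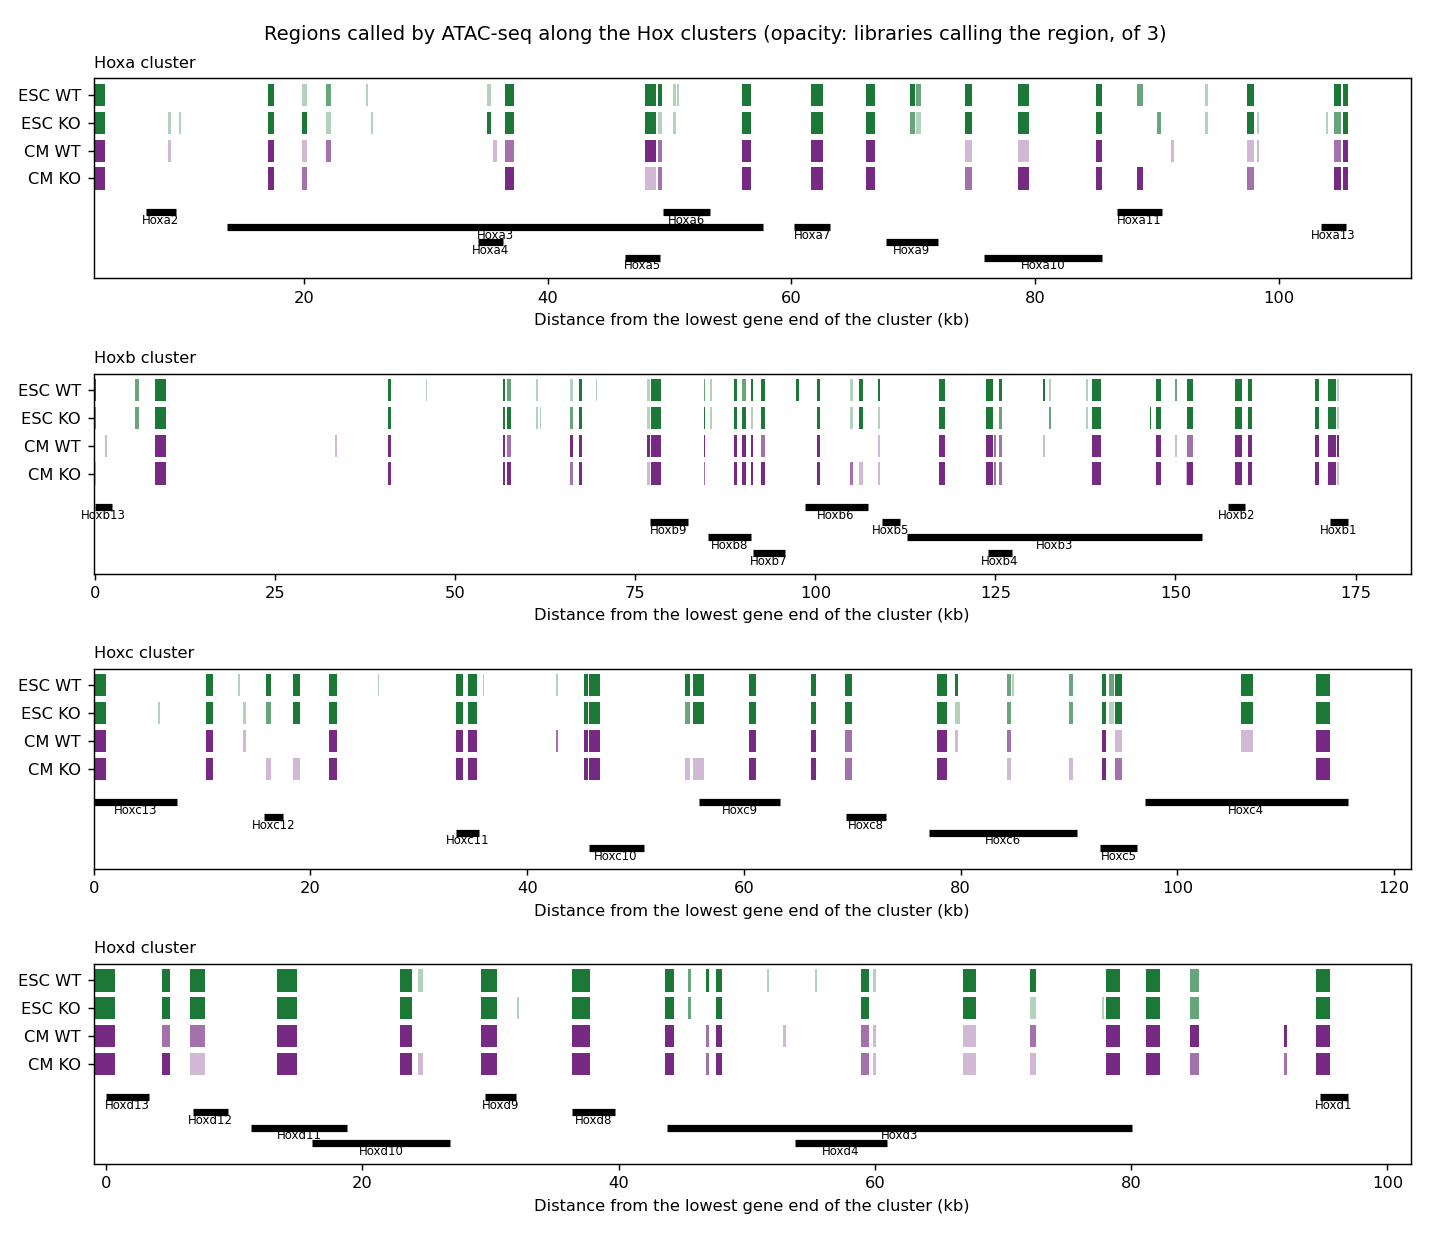
Union ATAC-seq regions (coloured bars, ESC green and CM purple) along each Hox cluster by distance in kb from the lowest gene end on the chromosome, with 1 row per group and opacity for the number of libraries of 3 that call the region. Black bars are Hox genes in RefSeq, each with its name. Of the 135 regions 94 appear in rows of both cell types, and the gaps in the CM rows include those at Hoxc12 and Hoxc9.

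At the level of genes, 27 of 39 members had an interval in the gene or within 1 kb in all 12 libraries (69.2%), beside 71.8% of 21900 protein-coding genes. They included 9 of the 16 members without listed RNA, such as Hoxb1, Hoxc11, Hoxc13, Hoxd1 and Hoxd13. Only Hoxc12 changed from 3 of 3 to 0 of 3 libraries, in WT differentiation, beside 1.28% of genes closed and 0.534% opened. Hoxc12 was called in 3, 2, 0 and 1 libraries. In KO differentiation 0 members opened or closed, beside 0.0548% and 1.44%. Between genotypes 0 members opened or closed in ESCs, beside 0.215% and 0.110%, or in CM, beside 0.105% and 0.557%. The lowest member was Hoxa2, an anterior gene of hindbrain and neural crest, called in 0, 2, 1 and 0 libraries. Hoxa9 was called in 3, 3, 1 and 1 libraries and Hoxb5 in 3, 1, 1 and 1, although both were listed in RNA in CM only or nearly so.

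An ATAC-seq interval overlapped 6 of the 24 promoters in all 12 libraries (Hoxa13, Hoxd1, Hoxd9, Hoxd10, the second start of Hoxd11, and Hoxd13), 8 in some and 10 in none. The promoters called in all 12 held a median of 27 CpG (20 to 45) and 69.0% G and C, and those called in none a median of 11 CpG (4 to 26) and 50.3%. Over all Hox promoters the median was 14.5 CpG, beside 7 for 32851 promoters of the same length. ATAC-seq overlap was not counted over those 32851. Whether this split, or its difference in CpG, is particular to Hox promoters was therefore not tested. The Hoxb4 promoter was called in 3, 3, 1 and 1 libraries and the Hoxc4 promoter in 3, 2, 1 and 0, while the RNA of both genes was listed in CM only. The Hoxd8 promoter went from 1 and 2 ESC libraries to 2 and 3 CM libraries. The union region overlapping each of the Hoxb4, Hoxc4 and Hoxd8 promoters was called in all 12 libraries. These counts therefore tell whether an interval reached the promoter window, and do not show that the surrounding region closed or opened.

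Motifs were searched by letters on both strands. TTTATG, the CDX core, was in 5 of 24 Hox promoters (20.8%), beside 11.9% of all promoters, with 2 matches each in Hoxa7, Hoxb8 and Hoxd4 and 1 each in Hoxd3 and the first start of Hoxd11. CCAAT was in 15 (62.5%), beside 37.4%. The HOX and PBX letters TGATTNAT were in 2 (8.33%), beside 3.22%, the MEIS core TGACAG in 2 (8.33%), beside 19.2%, and TATAAA in 4 (16.7%), beside 13.6%. Matches of different motifs may overlap in part and were counted for each. They describe letters, not binding.

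Hardly any m6A was listed on Hox RNA. Each list names positions in a gene with the 4 bases there. No Hox position was on the ESC WT or ESC KO list, where 0 and 2 members reached 0.1 RPKM, beside positions in 48.7% and 49.2% of genes at that level (31.3% and 32.8% of genes with 0.1 to 1 RPKM). In CM WT 3 of 16 members with at least 0.1 RPKM had a position, beside 62.0% of such genes and 50.9% of genes with 0.1 to 1 RPKM. In CM KO it was 2 of 16, beside 42.1% and 28.0%. Thin RNA limits what can be listed, and a missing position does not show unmethylated RNA.

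The CM WT list held 4 Hox positions. Hoxd8, a central gene, had AGAC at 2222 bases from the gene start, Hoxd3 had GAAC at 16403, and Hoxb2 had AGAC at 2969 and GGAC at 3056. Both Hoxb2 positions lie beyond the 2389 bp of the RefSeq gene, so the list gives Hoxb2 a longer extent than the RefSeq table does. The CM KO list held 2 positions, AGAC at 2231 in Hoxd8, which is 9 bases from the CM WT position, and GGAC at 15812 in Hoxc4. Hoxd8 was thus the 1 member on both lists. The KO lists held 18076 and 13962 positions in all in ESC and CM, beside 16983 and 25617 in WT, so listed positions did not disappear in libraries labelled KO. The sources used here do not say how the authors called them.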

How the data were processed

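Members and gene lists were chosen with earlier results of these data known. ATAC-seq peak lists were deposited per library in narrowPeak layout, with a score, a fold (ratio) and −log10 p-values and q-values by the authors. Lines of a file with the same start and end (several summits) were counted as 1 interval, with its best q-value. No file states a depth. ChrRNA-seq files hold RPKM deposited by the authors, without header, and 99.5% to 99.6% of Ensembl identifiers had a symbol. Depth was estimated from low RPKM steps and RefSeq gene lengths. Between 54.5% and 56.6% of genes lay within 0.05 of whole reads, and 9 of 23 listed members within 0.1, so estimated reads are approximate. The deposited Chrm6A-seq lists give a gene, a position and 4 bases. Compared with RefSeq promoters, 388 of 928 positions in the first bases matched at an offset from the gene start counted from 0, and at most 22 at neighbouring offsets. Per the submitters' processing notes, cutadapt, Bowtie, Picard, MACS2, HISAT2 and mm10 were used, with no version or role. Per the labels' protocols, ATAC-seq reads were single-end, and Chrm6A-seq used 2 m6A antibodies. Whether reads were shifted for the transposase is not stated.

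The labels of CM KO ATAC-seq replicate 3 name RNA, but its file is a peak list like the others and was used as such. Within groups at most 74 intervals were identical between replicates, so none was a repeated deposit. Coordinates are mm10 (GRCm38.p6 for RefSeq genes and promoters). Exact permutation tests were checked on small sets of fixed values, and the rule for opened and closed regions on simulated libraries. All 39 members enter the counts, and a few genes are not reported by name here. Other values are given for each member reaching 0.1 RPKM or with an m6A position, and list members are named when they pass the rule, up to 10. Alternatives were other ATAC measures and thresholds, other RPKM filters, pseudocounts and scaling, and leaving out libraries. Python 3.11.15, numpy 2.4.6, pandas 2.3.3, scipy 1.17.1 and matplotlib 3.10.9 were used.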

Additional observations from a re-analysis of the deposited data

Results flagged for a closer look

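The difference in KO effect between CM and ESC was flagged for Hoxb and Hoxc in 2 of the 3 ATAC-seq measures. Its exact permutation p, with genotype permuted within cell type, was below 0.05 there before adjustment. Only Hoxb passed 0.05 after adjustment over 12 tests. This permutation assumes no KO effect in either cell type, so a small p does not by itself show that the effects differ. In Hoxb base pairs, KO minus WT was -1766 in ESC and 1195 in CM, a difference of 2962 bp (exact permutation p = 0.01, adjusted 0.024). In Hoxb intervals per 100000 it was -2.27 in ESC and 7.18 in CM, a difference of 9.45 (exact permutation p = 0.01, adjusted 0.04). In Hoxc base pairs it was -1458 and 221, a difference of 1679 bp (exact permutation p = 0.035, adjusted 0.07). In Hoxc intervals per 100000 it was -0.742 and 2.53, a difference of 3.27 (exact permutation p = 0.025, adjusted 0.06). In plain interval numbers the differences were 2.33 for Hoxb and -0.667 for Hoxc, with exact permutation p of 0.51 and 0.82 and adjusted p of 0.78 and 0.88.

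The Hoxb base pair call was lost without ESC WT replicate 1, ESC KO replicate 1 or 2, CM WT replicate 1, or CM KO replicate 2 or 3, with differences of 2287 to 3420 bp and adjusted p up to 0.084 over all 12 omissions. The per 100000 call was lost without ESC WT replicate 1 or 2 or any 1 CM WT replicate, with differences of 6.89 to 10.98 and adjusted p up to 0.075. Library totals moved with these values, at 88791 ± 5064 intervals in CM WT and 73177 ± 3128 in CM KO (SD, n = 3 each), and their part in the difference was not tested. Of all covered bases, the share in Hox clusters was 97.7 ± 3.78, 87.6 ± 2.86, 80.6 ± 4.02 and 104.8 ± 3.43 per 100000 in WT ESC, KO ESC, WT CM and KO CM (SD, n = 3 each).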

How the results depend on the processing

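Direction in ATAC-seq interval numbers depends on the library total. With 70132 intervals taken from each library, CM minus ESC turned to 4.17 (Hoxa), 6.83 (Hoxb), 0.667 (Hoxc) and 5.83 (Hoxd); in WT to 1 (Hoxa), 3.67 (Hoxb) and 4.33 (Hoxd); in KO to 7.33 (Hoxa), 10 (Hoxb), 3.33 (Hoxc) and 7.33 (Hoxd). KO minus WT became 1 in ESC (Hoxb), 1.67 (Hoxc) and 1 (Hoxd) in CM and 4.17 over both (Hoxb), and the KO effect in CM minus ESC 5.33 (Hoxc) and 3 (Hoxd). Per 100000 intervals, CM minus ESC was 2.22 (Hoxb) and 4.10 (Hoxd) in WT, 3.47 (Hoxa), 11.7 (Hoxb) and 6.79 (Hoxd) in KO, and 0.420 (Hoxa), 6.94 (Hoxb) and 5.45 (Hoxd) over both; KO minus WT in CM was 2.53 (Hoxc) and 2.06 (Hoxd), over both 2.45 (Hoxb), 0.894 (Hoxc) and 0.718 (Hoxd), and the KO effect in CM minus ESC 9.45 (Hoxb), 3.27 (Hoxc) and 2.69 (Hoxd). In base pairs KO minus WT in CM was 221 (Hoxc), the KO effect in CM minus ESC 2962 (Hoxb), 1679 (Hoxc) and 1204 (Hoxd), and CM minus ESC -2829, -3933, -4978 and -2704 (Hoxa to Hoxd). With −log10 q of at least 5, KO minus WT was -0.667 (Hoxa) and 0.833 (Hoxb) and the KO effect in CM minus ESC 2 (Hoxc). With spans widened by 10 kb, KO minus WT in CM was -0.333 (Hoxb) and the KO effect in CM minus ESC 0.333 (Hoxc). Why these values turned was not tested.

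Leaving out 1 library turned the direction of 7 small differences: KO minus WT in ESC ranged over -3 to 1 (Hoxa), -1.17 to 0.833 (Hoxc) and -1.67 to 0.833 (Hoxd), in CM over -1.5 to 2 (Hoxb) and over both cell types -0.833 to 1.33 (Hoxa), CM minus ESC in WT over -2.17 to 0.5 (Hoxd), and the KO effect in CM minus ESC over -1.83 to 0.167 (Hoxc). Regions opened ranged over 1 to 4 (WT differentiation), 1 to 2 (KO differentiation), 1 to 2 (KO in ESC) and 1 to 2 (KO in CM), and regions closed over 8 to 12, 3 to 8, 3 to 5 and 0 to 2. With equal interval numbers opened and closed were 2 and 3 (WT differentiation), 5 and 0 (KO differentiation), and opened 2 in ESC and 2 in CM. With −log10 q of at least 5 opened were 2, 0 and 0 (both differentiations and KO in CM) and closed 1 (KO in CM), and with wider spans opened were 2 (WT differentiation). With at least 0.5 of an interval inside the span no adjusted p crossed 0.05 and no sign reversed, but small differences moved: Hoxd went from -0.667 to 0 (CM minus ESC in WT) and from -0.333 to 0 (KO minus WT in ESC), Hoxa from -0.667 to -0.333 (KO minus WT in ESC) and from 0.333 to 0.667 (KO minus WT over both), and Hoxb from -0.833 to -0.5 (KO minus WT over both), while exact permutation p for Hoxb in WT went from 0.1 to 0.2 (difference -4). Merging regions up to 100 bp apart moved no count of regions by over 1.5 times.

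In ChrRNA-seq, with a pseudocount of 1, or with at least 1 RPKM in either library, 0 members were higher and 0 lower in any comparison, since none reached 1 RPKM. Without the filter on low values no count moved. With scaled libraries 1 was higher in CM KO than in CM WT. Among genes listed in both libraries, a choice made after seeing the data, 0, 3, 0 and 1 were higher and 0 lower in the 4 comparisons in order.

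Same-numbered libraries did not deviate together (r from -0.00961 to 0.00502 over 12 pairs), and the numbers were not used as pairs. With a replicate block, sign-flip exact permutation p for Hoxc was 0.25 in both differentiations, at differences of -9.33 and -10 intervals. The m6A alternative with 1 kb around the gene was not run, since positions are listed by gene.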

Other observations

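The noncoding gene Gm53 in the Hoxb cluster had more chromatin RNA per length than the Hox genes of the CM libraries and of ESC KO, at 0.522, 0.701, 0.571 and 0.828 RPKM (WT ESC, KO ESC, WT CM, KO CM), on about 187, 252, 215 and 316 estimated reads. The highest Hox gene stood at 0.25, 0.410 and 0.594 RPKM in KO ESC, WT CM and KO CM. The noncoding gene Hotairm1 of the Hoxa cluster stood at 0.110, 0.0955, 0.0977 and 0.161 RPKM. The clusters also hold the microRNA genes Mir10a, Mir10b, Mir196a-1, Mir196a-2, Mir196b and Mir615, none of which was listed. The flanking genes Hnrnpa1 and Cbx5 beside Hoxc ranged from 6.09 to 9.24 and from 2.84 to 5.17 RPKM.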
